A study of Homo sapiens with 16 samples.

Results

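The genes described here encode the core and linker histones. Of 19821 protein-coding genes of the GENCODE annotation on GRCh37 that had at least 1 annotated transcription start site (TSS), 71 had a symbol beginning with H1-, H2AC, H2BC, H3C, H4C or one of the older HIST prefixes, and these 71 were taken as the histone genes. They comprised 10 H1, 17 H2A, 17 H2B, 13 H3 and 14 H4 genes. A histone gene was called bound in a library when the centre of a ChIP-seq peak lay within 1000 bp of one of its TSSs. HIF-1α and HIF-2α, the oxygen-regulated subunits of the hypoxia-inducible factors, had each been mapped by ChIP-seq in A549 (lung cancer), HCT116 (colorectal cancer), PC3 (prostate cancer) and T47D (breast cancer) cells, all of them held at 0.5% oxygen for 16 h. There were 2 replicate libraries for each isoform in each cell line, 16 in all, and no library from cells in normal oxygen was used here. The labels do not say whether replicates came from separate cultures, so the spread between them may be technical. The lists give no read depth and no RNA level, so a missing peak may lie below the peak caller's threshold, and the identity of the cells was not checked against markers.

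Histones are the proteins around which DNA is wound. Pairs of H2A, H2B, H3 and H4 form the core of the nucleosome, and H1 binds the linker DNA between nucleosomes. Most histone genes are replication-dependent: they lie in clusters, are transcribed in S phase, lack introns and yield mRNAs that end in a stem-loop in place of a poly(A) tail. Their transcription is coordinated by NPAT at histone locus bodies, and their promoters commonly carry CCAAT, TATA and, for H2A and H2B pairs, octamer elements. HIFs act as heterodimers with HIF-1β at the hypoxia response element, whose core is RCGTG (R is A or G). Hypoxia slows DNA replication in many cells, and the question asked here was how often HIF peaks lay at the promoters of these S phase genes.

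No more than 6 of the 71 histone genes were bound in any library, and the histone gene share lay below that of all protein-coding genes in each of the 16 libraries. In the HCT116 HIF-1α libraries 6 histone genes (8.45%) were bound in replicate 2, against 17.5% of all genes, and 3 (4.23%) in replicate 3, against 16.4%. In PC3 HIF-1α, 0 were bound in replicate 1, against 5.13% of all genes, and 3 (4.23%) in replicate 2, against 12.4%. The T47D HIF-1α libraries had 1 bound histone gene (1.41%) each, against 2.96% and 2.69% of all genes. In A549 HIF-1α, 0 were bound in replicate 2, against 1.02%, and 1 (1.41%) in replicate 3, against 1.83%. The Wilson 95% intervals, which cover counting error only, were 3.93% to 17.2% and 1.45% to 11.7% for the HCT116 libraries and 1.45% to 11.7% for PC3 replicate 2, and 0.249% to 7.56% where 1 gene was bound. A count of 0 of 71 genes allows a share of up to 4.23%. The all-gene share lay above the interval in HCT116 and in PC3 replicate 2, and within the interval or limit in the A549 and T47D libraries. In PC3 replicate 1 the all-gene share was above the limit of 4.23% for a count of 0. It was not above the Wilson interval for that count, whose upper end was also 5.13%, so that library does not separate the shares. Histone genes in one cluster can share a peak, so they were not independent draws and the intervals are too narrow.

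No histone gene was bound in a HIF-2α library. The share was 0 of 71 genes in each of the 8 libraries, with the same limit of 4.23%. The corresponding shares of all protein-coding genes were 1.0% (replicate 2) and 1.14% (replicate 3) for A549, 2.26% and 1.53% for HCT116, 0.202% (replicate 1) and 1.74% (replicate 2) for PC3, and 0.368% and 0.444% for T47D. Each of these is below the limit that a count of 0 allows, so a lower share of histone genes was not detectable in any single HIF-2α library. Over the 8 HIF-2α libraries together 5.22% of all genes were bound in at least 1, against 0 of 71 histone genes.

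**Figure D1:**
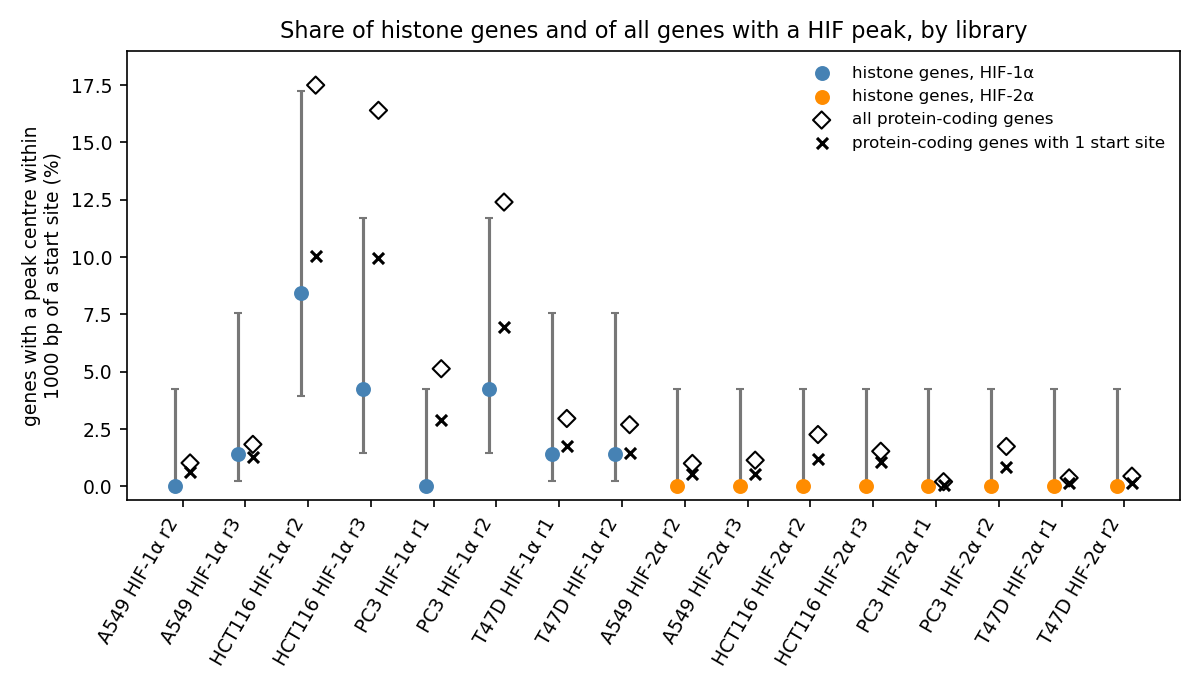
Share of genes (%, vertical axis) with a peak centre within 1000 bp of a TSS in each of the 16 libraries (horizontal axis, r for replicate): filled points are the 71 histone genes with Wilson 95% intervals (for a count of 0, a bar up to the limit of 4.23%), diamonds all 19821 protein-coding genes and crosses the 4947 protein-coding genes with 1 TSS. The filled point lies below the diamond in every library, and in HCT116 HIF-1α replicate 2 the histone share of 8.45% lies close to the cross at 10.0%.

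Averaged over replicates, the histone share in HIF-1α libraries was 6.34% ± 2.99 (SD, n = 2) in HCT116, 2.11% ± 2.99 (n = 2) in PC3, 1.41% ± 0 (n = 2) in T47D and 0.704% ± 0.996 (n = 2) in A549. HCT116 stood highest and its replicates did not overlap those of T47D or A549, but its lower replicate equalled the higher one of PC3. The all-gene share followed the same order, at 17.0% ± 0.721, 8.74% ± 5.11, 2.83% ± 0.186 and 1.42% ± 0.571. The difference between HCT116 and the other lines was 4.93 percentage points, but 2.82 without HCT116 replicate 2 and 7.04 without HCT116 replicate 3. The peak lists of the HIF-1α libraries also differed in length, from 382 peaks in A549 replicate 2 to 4505 in HCT116 replicate 2. HCT116 had the longest lists and the highest histone share. PC3 replicate 1, with 1517 peaks, had 0 bound histone genes, whereas T47D replicate 1, with 761, had 1. The part of list length in the difference between HCT116 and the other lines was not tested beyond the equal-length alternative, in which no histone gene was bound. Over the 4 cell lines the mean histone share was 2.64% in HIF-1α libraries against a mean all-gene share of 7.49%, a difference of -4.85 percentage points. In HIF-2α libraries it was 0 against 1.09%.

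The number of TSSs differed between the sets: 62 of the 71 histone genes had a single annotated TSS, whereas all protein-coding genes had a median of 3. Among the 4947 protein-coding genes with 1 TSS, the bound share in HIF-1α libraries was 10.0% and 9.95% for HCT116, 2.89% and 6.95% for PC3, 1.78% and 1.46% for T47D and 0.647% and 1.29% for A549. These lie inside the Wilson interval of the histone share in the same library or, where it was 0, below 4.23%. With both sets restricted to genes with 1 TSS, a comparison chosen after seeing the data, the mean difference in HIF-1α libraries was -2.16 percentage points. The part of the number of TSSs in the difference was not tested further.

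At least 1 HIF-1α library had a peak at 8 histone genes (11.3%, Wilson interval 5.82% to 20.7%), against 28.2% of all genes. Over all 16 libraries these were still the 8 bound histone genes, against 29.2% of all genes. At least 4 of the 8 HIF-1α libraries had a peak at 1 histone gene, H4C16, against 4.12% of all genes. Both replicates agreed on H4C16 and H2BC6 in HCT116, where 10.7% of all genes were bound in both, and on H3C7 in T47D, where 1.77% were. In A549 and PC3 no histone gene was bound in both HIF-1α replicates, against 0.752% and 3.93% of all genes. By family, 1 of 10 H1, 1 of 17 H2A, 2 of 17 H2B, 1 of 13 H3 and 3 of 14 H4 genes were bound, counts too small to order the families.

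The peaks at the 8 bound genes are shown first by the RCGTG core nearest to the peak centre, since this is the element through which HIF contacts DNA. Each line gives 25 bases of GRCh37 on the strand that reads RCGTG, with the core in capitals; for genes with several peaks 1 or 2 are given.

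H4C16, HCT116 HIF-1α replicate 2 (chr12:14923251-14923275, plus strand): cgcccttgacGCGTGacgctcaccc
H4C16, A549 HIF-1α replicate 3 (chr12:14923320-14923344, plus strand): gccatccgatACGTGcttatgggcc
H2BC6, HCT116 HIF-1α replicates 2 and 3 (chr6:26172246-26172270, minus strand): cgttaaacgtACGTGacgccctatg
H3C7, T47D HIF-1α replicate 1 (chr6:26250480-26250504, plus strand): cactcgcttgGCGTGgatagcacac
H3C7, T47D HIF-1α replicate 2 (chr6:26250604-26250628, minus strand): agcgtctggtACGTGagatcgcgca
H2AC15 and H2BC15, HCT116 HIF-1α replicate 2 (chr6:27806551-27806575, plus strand): tactccgtgtACGTGtacaaggtgc
H2AC15 and H2BC15, PC3 HIF-1α replicate 2 (chr6:27806095-27806119, minus strand): tcatgtcgggACGTGgcaagcaggg
H4C1, HCT116 HIF-1α replicate 2 (chr6:26022016-26022040, plus strand): gtctggcccgGCGTGgcggtgtgaa
H4C11, HCT116 HIF-1α replicate 2 (chr6:27792118-27792142, minus strand): cttgcgcttgGCGTGctctgtatag
H1-10, HCT116 HIF-1α replicate 3 (chr3:129035600-129035624, plus strand): ggctggggcaACGTGaactgcgcta

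The core nearest the centre was not the same in different libraries of H4C16, H3C7 or the H2AC15 and H2BC15 pair, whereas at H2BC6 both replicates pointed to one core. A core of 5 bases is short, and 97.2% of histone genes and 95.1% of all genes had at least 1 RCGTG within 1000 bp of the 5′ end of the gene, so these matches describe the peaks and do not mark sites.

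H4C16 (ENSG00000197837, chr12:14920933-14924065, minus strand), an H4 gene outside the large clusters, was the histone gene bound in the most libraries. Its HIF-1α peak had a score of 54.22 in A549 replicate 3, 100.1 in HCT116 replicate 2, 87.91 in HCT116 replicate 3 and 63.65 in PC3 replicate 2. The score is the peak caller's own and its scale is not stated, so it is read here by its percentile, the share of the peaks of the same library that scored no higher. The 4 peaks stood at percentiles 12.8, 64.9, 61.3 and 29.7, so none was among the strongest of its library. Their centres lay 632, 802, 893 and 824 bp downstream of the TSS, in an intron of the gene record in 3 libraries and in an exon of it in HCT116 replicate 3. With a limit of 500 bp no library had a peak at H4C16, and when the peak interval itself had to cover the TSS only 1 library did.

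H2BC6 (ENSG00000274290, chr6:26172287-26184883, plus strand), an H2B gene of the chromosome 6 cluster, had the highest-ranked peaks, with scores of 162 and 154 in HCT116 HIF-1α replicates 2 and 3, at percentiles 84.0 and 86.0. Both centres lay at the upstream TSS of a long transcript, 3 and 48 bp downstream of position 26172287, within its 5′ untranslated exon and an exon of an unnamed long non-coding RNA. The other TSS, at 26183989, had no peak centre within 1000 bp in any library, and the nearest centre was 11654 bp away. The call for H2BC6 thus rested on the long transcript. The central 200 bp of these peaks held 29 and 25 CpG dinucleotides, more than at any other bound histone gene.

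H2AC15 (ENSG00000275221, chr6:27805658-27806153, minus strand) and H2BC15 (ENSG00000233822, chr6:27806323-27823487, plus strand) are a divergent H2A and H2B pair that shared its peaks. The score was 93.2 in HCT116 HIF-1α replicate 2 and 94.2 in PC3 HIF-1α replicate 2, at percentiles 61.2 and 61.8, and the other replicate of each line had no peak. The PC3 centre fell between the genes, 13 bp upstream of the H2AC15 TSS, and the HCT116 centre fell in the coding exon of H2BC15.

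H3C7 (ENSG00000277775, chr6:26250370-26250863, minus strand), an H3 gene, was bound in T47D and in no other line. The scores were 80.87 in replicate 1 and 54.65 in replicate 2, at percentiles 52.2 and 16.2. The centres lay 422 and 224 bp downstream of the TSS, in the coding exon.

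The remaining bound genes each had 1 peak in 1 HCT116 HIF-1α library. H4C1 (ENSG00000278637, chr6:26021877-26022278) had a score of 50.23 in replicate 2, rank 4470 of 4505 and so nearly the weakest peak of the list. H4C11 (ENSG00000197238, chr6:27791870-27792258) scored 58.9 in replicate 2, at percentile 23.4. The centres of these peaks fell in the coding exon, 185 bp downstream of the TSS of H4C1 and 278 bp downstream of that of H4C11. H1-10 (ENSG00000184897, chr3:129033614-129035129), a replication-independent linker histone gene, scored 63.29 in replicate 3, at percentile 33.1, with the centre 588 bp upstream of the TSS. None of the 3 had a peak in the other HCT116 replicate.

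**Figure D2:**
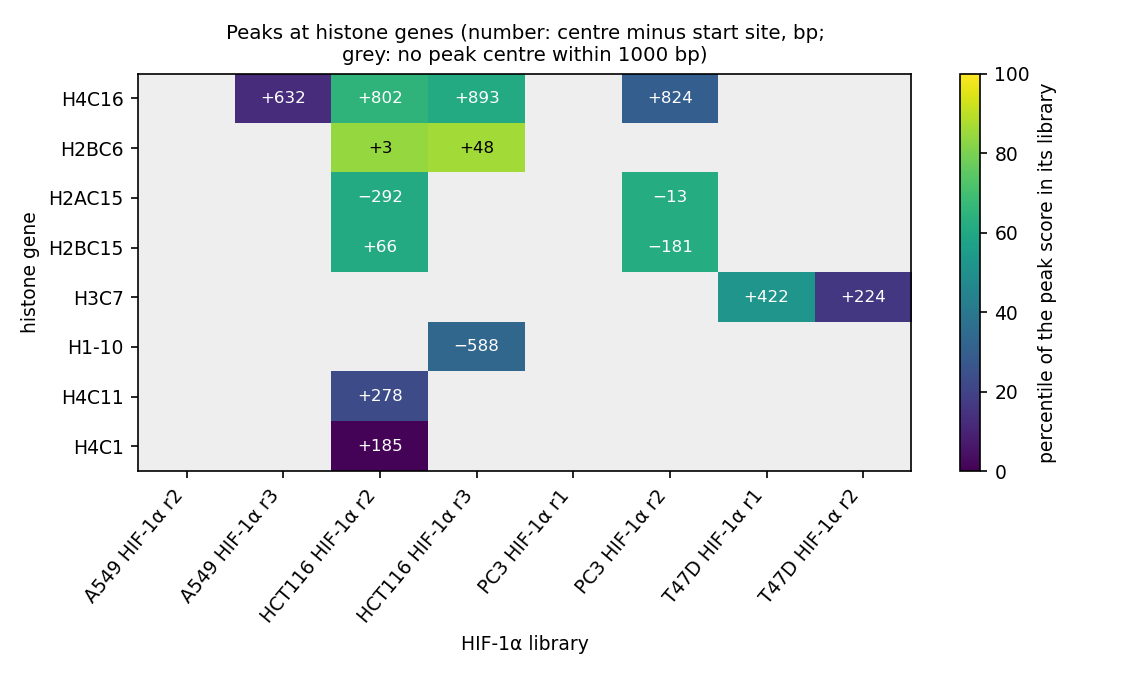
Peaks at the 8 bound histone genes (rows) in the 8 HIF-1α libraries (columns, r for replicate): colour gives the percentile of the peak score within its library, the printed number the distance in bp of the peak centre from the TSS (positive is downstream), and grey means that no centre lay within 1000 bp. H4C16 was filled in 4 libraries and no other gene in more than 2, and the percentiles ran from 0.799 to 86.0.

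In all, 15 of 1136 combinations of histone gene and library held a peak, from 13 distinct peaks. Their median percentile was 52.2, against 53.7 for all 10619 HIF-1α peaks within 1000 bp of a protein-coding TSS, and their median width was 1134 bp, against 1298 bp. The histone peaks were thus not at the top of their lists, and none was among the 275 best peaks of its library. The centre lay downstream of the TSS in 11 of the 15 combinations.

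To compare the isoforms at single genes, the HIF-1α and HIF-2α labels were exchanged within each cell line, in 1296 ways over the 16 libraries, as an exact two-sided permutation test with Benjamini-Hochberg adjustment over the 383 genes whose pattern of bound libraries could reach p = 0.05. Of these, 279 (72.8%) were called, all with more HIF-1α than HIF-2α libraries, and 0 (0.0%) with more HIF-2α libraries. Fewer genes could be tested when a line was left out. The count was then 81 of 104 genes tested without PC3 and 94 of 118 without HCT116. It was 0 of 5784 when all genes with a peak in at least 1 library were adjusted together, although 297 had an unadjusted p up to 0.05. Each isoform had its own antibody, so the test cannot tell isoform and antibody apart. It also does not adjust for list length. In HCT116, PC3 and T47D the HIF-1α lists were longer than the HIF-2α lists, and in A549 they were shorter. No histone gene was bound in enough libraries to be tested. H4C16, with 4 HIF-1α libraries and 0 HIF-2α libraries, had a smallest possible exact permutation p of 0.0833. The absence of a call at histone genes therefore says nothing on whether the isoforms differ there. The histone share was 2.64 percentage points higher in HIF-1α than in HIF-2α libraries, and the all-gene share was higher by the difference between 7.49% and 1.09%.

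The histone genes just outside the limit of 1000 bp were H2BC9, with a centre 1203 bp upstream of its TSS in T47D HIF-1α replicate 2, H3C1, 1383 bp downstream in HCT116 HIF-1α replicate 2, and HIST1H4B, 1846 bp upstream in T47D HIF-1α replicate 1. The nearest inside were the H4C16 peaks at 893 and 824 bp. H2BC9 neighbours H3C7 and H3C1 neighbours H4C1, so these centres belonged to peaks already described. Widening the limit brought in HIF-1α peaks faster at histone genes than at all genes. Within 2000 bp, 11 histone genes (15.5%) had a peak in at least 1 HIF-1α library, against 29.3% of all genes. Within 5000 bp there were 16 (22.5%), against 31.5%, and within 10000 bp 19 (26.8%), against 35.0%. The mean share per HIF-1α library was 10.4% within 10000 bp, against 9.72% of all genes, so the gap in this mean was no longer present. The share with a peak in at least 1 HIF-1α library was still lower for histone genes at that distance. Neighbouring histone genes then count the same peak. For HIF-2α, 0 histone genes had a peak within 2000 bp and 2 (2.82%) within 5000 bp, against 7.61% of all genes; H4C8, an H4 gene of the chromosome 6 cluster, was one of them.

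**Figure D3:**
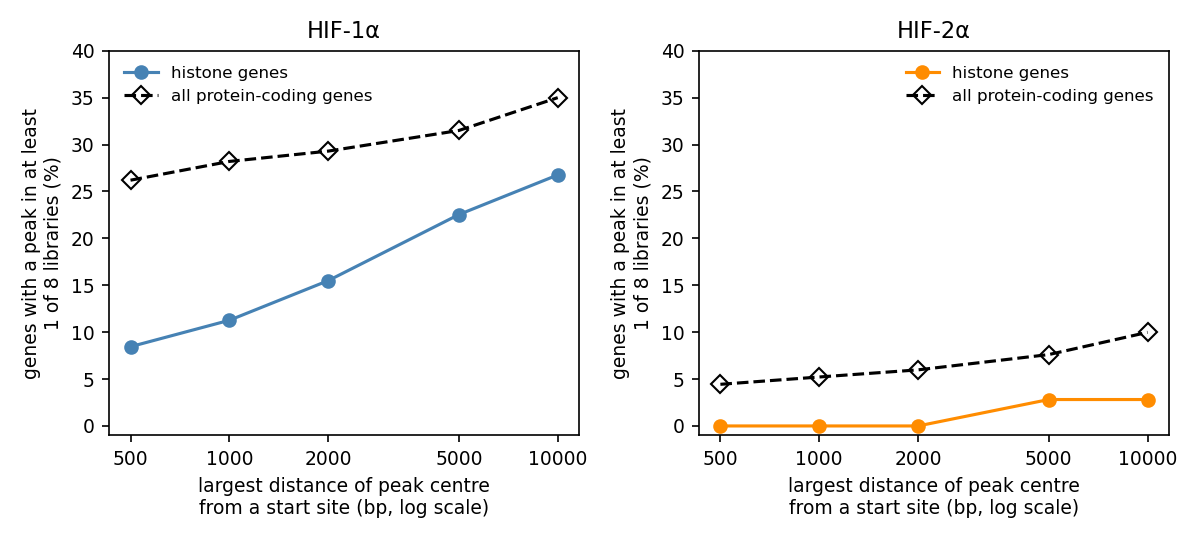
Share of genes (%, vertical axis) with a peak in at least 1 of the 8 libraries of HIF-1α (left) or HIF-2α (right), for limits from 500 to 10000 bp between peak centre and TSS (horizontal axis, log scale): circles are the 71 histone genes and diamonds all protein-coding genes. The HIF-1α histone share rose from 8.45% to 26.8% while the all-gene share rose from 26.2% to 35.0%; the HIF-2α histone share was 0 up to 2000 bp.

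Most histone genes lie in the chromosome 6 cluster, in which 52 genes spread over 2138 kb. Here 6 of the 52 were bound in at least 1 library, beside 29.2% of all genes, and 31 peaks from the 16 libraries lay in the span, 25 of HIF-1α and 6 of HIF-2α. Of the 20 other protein-coding genes with a TSS in the span 1 was bound, ABT1, which encodes an activator of basal transcription, with a peak in both HCT116 HIF-1α replicates. The larger chromosome 1 cluster (chr1:149754245-149859515), with 11 genes, and a chromosome 1 pair (chr1:228622478-228650805) held 0 peaks. Of the 2 chromosome 3 genes 1 was bound, H1-10. Other protein-coding genes with a TSS among these histone genes numbered 1 in the larger chromosome 1 cluster, BOLA1, and 4 between the chromosome 3 genes. Of those 4, IFT122 and MBD4 were bound. BOLA1 also counted as bound, but no peak lay in that cluster or within 10000 bp of it. The bound TSS of BOLA1 therefore lay outside the cluster. Sites near but outside the promoters recurred more than any promoter peak.

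The most recurrent HIF-1α site of the chromosome 6 cluster was intergenic and lay 1876 bp upstream of the HIST1H4B TSS. It was found in 7 of the 8 HIF-1α libraries, all but PC3 replicate 1, and in 0 HIF-2α libraries. Its scores were 69.59 and 210 in A549 replicates 2 and 3, 317 and 161 in HCT116 replicates 2 and 3, 70.46 in PC3 replicate 2, and 136 and 53.65 in T47D replicates 1 and 2. The percentile ranged from 13.6 in T47D replicate 2 to 93.9 in HCT116 replicate 2, and it differed between the T47D replicates (75.2 and 13.6) more than between those of HCT116 (93.9 and 87.0). With a limit of 2000 bp HIST1H4B counted as bound in 7 libraries. It was the 1 histone gene that the isoform test could take and was called, beside 297 of all 406 genes tested. At 5000 bp H3C2, an H3 gene, and H2AC4, an H2A gene, were also called, beside 309 of all 434 genes tested. These calls all rested on the same site. HIST1H4B is the older symbol of an H4 gene, and the site was noticed after the values were seen.

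A second site lay 10662 bp upstream of H4C8, an H4 gene, and had peaks of both isoforms. Its HIF-1α scores were 80.29 and 69.05 in A549, 55.13 in HCT116 replicate 2, and 55.0 and 170 in PC3, and its HIF-2α scores were 561 and 300 in A549 and 94.39 in PC3 replicate 2. T47D had no peak there. In A549 both HIF-2α replicates scored above both HIF-1α replicates, at percentiles 94.6 and 89.7 against 58.9 and 39.3, although scores of different antibodies need not share a scale. Another site lay 2825 bp upstream of H4C8 and was found in both A549 HIF-2α libraries and in no other, with scores of 105 and 72.03.

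**Figure D4:**
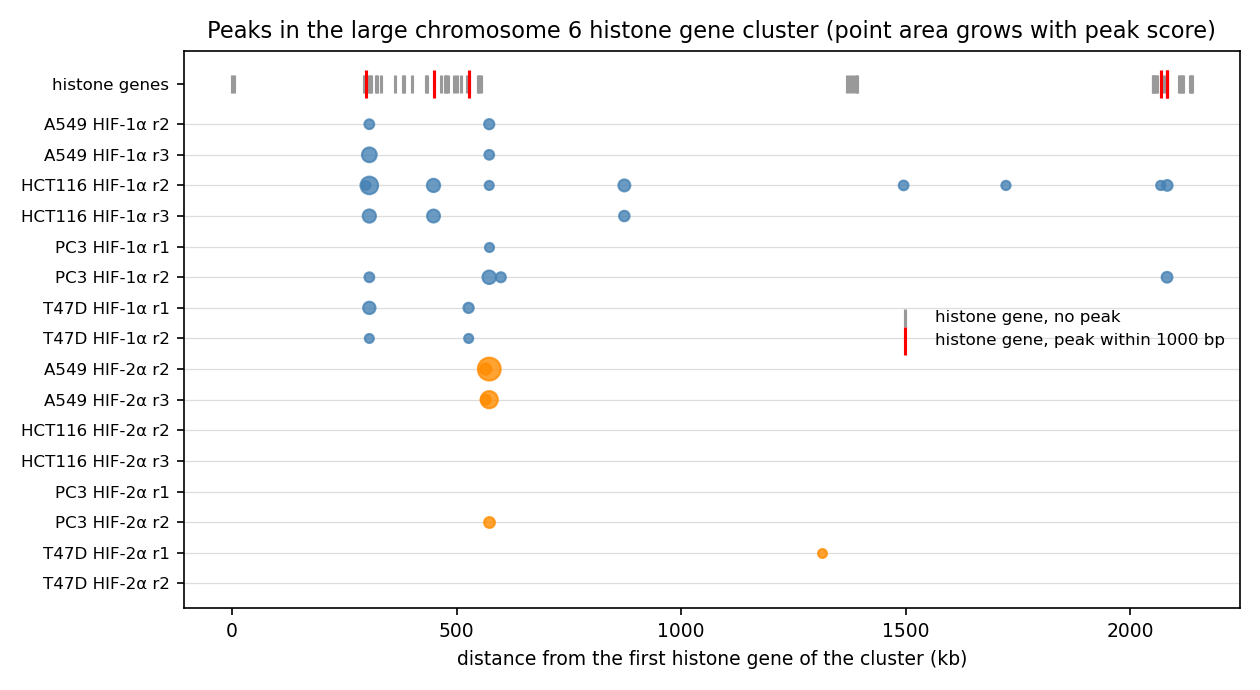
Peaks of the 16 libraries (rows, r for replicate) along the chromosome 6 histone gene cluster, by distance in kb from its first gene (horizontal axis); point area grows with the peak score, blue is HIF-1α and orange HIF-2α, and the top row marks the histone genes, in red where a peak centre lay within 1000 bp of a TSS in at least 1 library (H2AC15 and H2BC15 overlap at this scale). Peaks of 7 HIF-1α libraries line up near 306 kb, beside HIST1H4B, and peaks of 8 libraries near 573 kb, beside H4C8.

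Promoter sequence was compared next. In the RefSeq promoter table (GRCh38.p14; 300 bases around each TSS, most of them upstream), 64 of the 71 histone genes were matched, with 69 promoters, beside 22199 promoters of all protein-coding genes. RCGTG on either strand was found in 29.0% of histone promoters, against 54.7% of all promoters. The ACGTG form was found in 15.9% against 23.0%, and the GCGTG form in 15.9% against 43.0%. The median histone promoter held 11 CpG dinucleotides and the median promoter of all genes 21. The histone promoters were instead rich in the elements of replication-dependent transcription. CCAAT, the motif of NF-Y, was found in 82.6% against 34.7% of all promoters, TATAAA in 65.2% against 9.47%, and TTTGCAT, part of the octamer bound by POU2F1, in 36.2% against 3.84%. CCAAT was found in 16 of 16 H2A, 18 of 18 H2B and 13 of 13 H3 promoters but in 2 of 12 H4 promoters. TTTGCAT was found in 11 of 16 H2A and 13 of 18 H2B promoters, in 1 of 13 H3 promoters and in 0 of 10 H1 and 0 of 12 H4 promoters. All motifs were searched on both strands, the matches are descriptions of the letters and not sites, and the promoters of a family are similar in sequence and not independent.

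**Figure D5:**
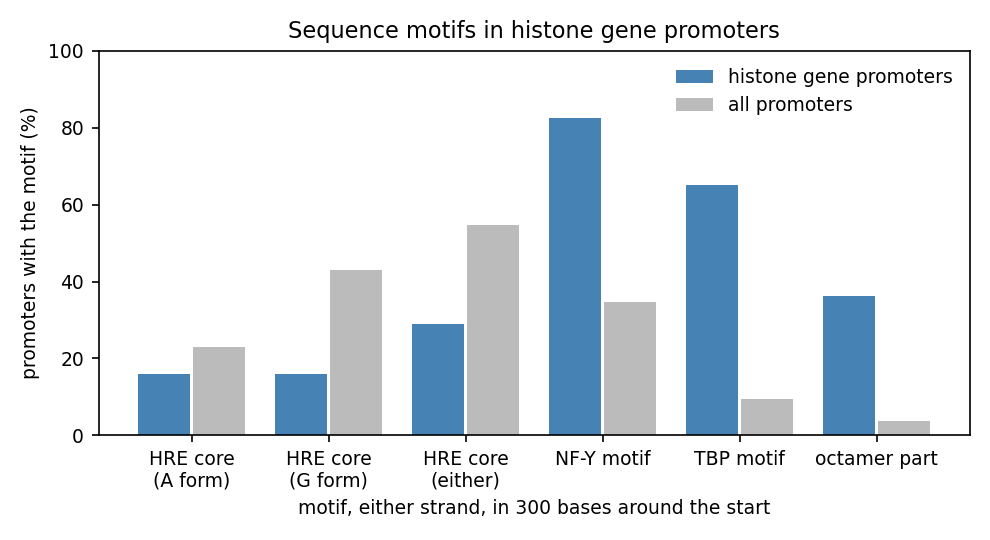
Share of promoters (%, vertical axis) that hold each motif on either strand within 300 bases around the TSS, for 69 histone gene promoters (blue) and 22199 promoters of all protein-coding genes (grey). The hypoxia response element (HRE) core RCGTG is split into its A form (ACGTG) and G form (GCGTG) and was less common in histone promoters (29.0% against 54.7%), while CCAAT (labelled NF-Y motif), TATAAA (TBP motif) and TTTGCAT (octamer part) were more common.

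The stretch immediately upstream of the TSS is given for H3C7, for the H2AC15 and H2BC15 pair (the whole interval between the genes) and for H4C16, because these are bound genes whose upstream sequence lacks RCGTG. The sequences are from GRCh37, on the minus strand, with CCAAT and TATAAA on either strand in capitals.

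H3C7 upstream (chr6:26250864-26251063): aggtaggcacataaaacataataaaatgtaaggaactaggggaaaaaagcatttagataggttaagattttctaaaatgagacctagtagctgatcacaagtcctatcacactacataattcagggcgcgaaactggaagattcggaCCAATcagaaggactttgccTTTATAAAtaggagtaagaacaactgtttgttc
H2AC15 upstream (chr6:27806154-27806322): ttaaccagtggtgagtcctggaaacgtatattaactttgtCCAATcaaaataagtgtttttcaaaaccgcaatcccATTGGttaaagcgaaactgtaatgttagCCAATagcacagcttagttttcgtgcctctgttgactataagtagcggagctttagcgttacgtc
H4C16 upstream (chr12:14924066-14924265): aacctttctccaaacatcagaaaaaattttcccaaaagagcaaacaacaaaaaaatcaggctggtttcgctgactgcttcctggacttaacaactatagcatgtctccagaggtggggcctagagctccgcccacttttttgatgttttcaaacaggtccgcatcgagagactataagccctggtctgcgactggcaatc

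Each of the 3 stretches held 0 RCGTG, the trait for which they were chosen. The H2AC15 and H2BC15 interval held 3 CCAAT matches in 169 bases, the H3C7 stretch 1 CCAAT and 2 overlapping TATAAA matches, 1 on each strand, and the H4C16 stretch 0 of either. The peak centres of H3C7 and H4C16 lay inside the gene, and so did the cores nearest to them.

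Around the 5′ end of the gene record in GRCh37, 22 of 71 histone genes (31.0%) had an RCGTG in the central 200 bp, against 42.7% of all genes. Of these 22, 5 (22.7%) were bound in at least 1 HIF-1α library, against 36.2% of the 8463 genes with a core, and of the other 49 histone genes 3 (6.12%) were bound, against 22.3% of 11358 genes without one. The histone share was thus below the all-gene share with and without a core. These shares rest on 5 and 3 bound histone genes, no interval was computed for them, and the number of TSSs was not matched. The part of promoter sequence in the difference was not tested.

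The authors had removed reads of low mapping quality, which can remove signal where sequence is repeated in the genome. Of the 50-base words within 1000 bp of the 5′ end, a median of 97.0% occurred once in the genome at histone genes, against 100% at all genes. For 8 histone genes, all in the larger chromosome 1 cluster, under 50% of the words were unique, and H3C14, H3C15, H4C14 and H4C15 had none. The lack of peaks in that cluster is therefore uncertain. Of the 51 histone genes with at least 90% unique words, 7 (13.7%) were bound in at least 1 HIF-1α library, against 30.0% of 17709 such genes, a gap close to that over all members. H4C11, at 76.4%, was the bound gene with the fewest unique words.

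Peaks were also counted at genes that act on histones or their mRNA; the number of TSSs per gene was not matched to that of the histone genes. Among 16 genes of histone transcription and 3′ end processing, 9 (56.2%) had a peak in at least 1 HIF-1α library and 2 (12.5%) in a HIF-2α library, beside 28.2% and 5.22% of all genes. SLBP, which binds the stem-loop of histone mRNA, had peaks in 6 HIF-1α and 0 HIF-2α libraries (exact permutation test, adjusted p = 0.0357), and POU2F1, the octamer-binding factor, in 8 and 2 (adjusted p = 0.0322). NPAT itself had a peak in 1 HIF-1α library, and HINFP, LSM11, CASP8AP2, ZNF473, CDK2, E2F1 and CSTF2 had none. Among 20 histone chaperone genes, 9 (45.0%) were bound by HIF-1α and 2 (10.0%) by HIF-2α in at least 1 library. HIRA, a chaperone of the H3.3 variant, had peaks in 6 HIF-1α and 0 HIF-2α libraries (exact permutation test, adjusted p = 0.0322). These were the 3 genes of both lists that could be tested, and all 3 were called, beside 72.8% of all genes tested; as for all genes, none was called when every gene with a peak was adjusted together. The CAF-1 and ASF1 genes CHAF1A, CHAF1B, ASF1A and ASF1B, which handle newly made H3 and H4 at replication, had no peak.

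Of 12 genes of replication-independent histone variants, which include the member H1-10, 4 (33.3%) were bound in at least 1 HIF-1α and 2 (16.7%) in at least 1 HIF-2α library, beside 28.2% and 5.22% of all genes. H3-3B, which encodes H3.3, had peaks in 5 HIF-1α libraries and 1 HIF-2α library, H3-3A in 2 and 0, MACROH2A2 in 3 and 0, and H2AX in 0 and 2. None of the 12 could be tested between isoforms. The same libraries had peaks at known HIF targets: ALDOA, ENO1, LDHA and PGK1, genes of glycolysis, in all 8 HIF-1α and all 8 HIF-2α libraries, and 9 of 10 listed targets were bound by HIF-1α in at least 1 library. Others of the list had fewer: ANKRD37 had peaks in 8 HIF-1α and 6 HIF-2α libraries, VEGFA in 4 and 0, CA9 in 2 and 2, and NDRG1 in 1 and 1. BNIP3, a mitophagy receptor gene, had peaks in 8 HIF-1α and 2 HIF-2α libraries and was called higher for HIF-1α (exact permutation test, adjusted p = 0.0357). It was not called when every gene with a peak was adjusted together. EGLN3, an oxygen sensor gene, had no peak within 1000 bp of a TSS.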

How the data were processed

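Peak lists of 16 ChIP-seq libraries were used, grouped by cell line and isoform from the labels, with 2 replicates each. According to the methods and processing notes, the authors trimmed reads (Trim Galore 0.3.3), aligned them to GRCh37 with BWA 0.7.5a-r405, removed reads of low mapping quality, blacklisted regions and duplicates (SAMtools 0.1.19, bedtools 2.17.0, Picard 2.0.1) and called peaks with T-PIC and with MACS in control mode, keeping those found by both and passing a background filter. The lists deposited hold MACS peaks of single libraries, numbered with 0 gaps, so these later filters appear not to have been applied to them. The MACS version and control library are not given in the sources used here. The authors deposited 1 score per peak, which was used to rank and filter peaks, and its scale is not stated. Read depth is unknown; lists held 275 to 4505 peaks, which limits precision.

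Genes and TSSs were from GENCODE release 44 mapped to GRCh37; 342 of 20163 protein-coding records had no TSS and were left out. Of 23398 peaks, 29 were off chromosomes 1 to 22, X and Y. Uniqueness was counted over words of 50 bases. Python 3.11.15, numpy 2.4.6, scipy 1.17.1, pandas 2.3.3, numba 0.67.0 and matplotlib 3.10.9 were used, and the isoform test and the window join were tested on simulated data. Intervals are Wilson 95% intervals. No test was made of the histone share, because the members and gene lists were chosen with earlier results of these data known.

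Named were the 10 histone genes with peaks in the most libraries (8 had any), the leading gene of each family, genes called by the isoform test or with HIF-2α peaks in at least 2 libraries (none), and those nearest the 1000 bp limit; comparison genes came from the lists. The sites near HIST1H4B and H4C8 were chosen after their values were seen. Some members and sequences are not reported here. Alternatives were other windows, overlap of the TSS, 1 TSS per gene, stricter or equal numbers of peaks, other member sets, the replicate block, and leaving out libraries or cell lines.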

Additional observations from a re-analysis of the deposited data

How the results depend on the processing

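The mean difference between histone genes and all genes stayed negative under the 31 alternatives run, which went up to a limit of 5000 bp (at 10000 bp the HIF-1α shares were 10.4% and 9.72%), from -6.22 to -0.977 percentage points for HIF-1α and from -1.31 to -0.346 for HIF-2α. It was -0.982 (HIF-1α) with a limit of 5000 bp, -2.67 with peaks scoring at least the median of 74.55, -0.977 (HIF-1α) and -0.346 (HIF-2α) with the 275 best peaks of each library, -2.92 without HCT116 and -2.16 with genes of 1 TSS; the last, and the set of genes with at least 90% unique words, were added after the data were seen. Where no histone gene was bound, the difference could only be negative, so its sign there is no support. That was so for HIF-2α in every alternative except the limit of 5000 bp, and for HIF-1α with the 275 best peaks. The number of bound histone genes, 8, became 17 at 5000 bp, 5 with the score limit, 0 with equal lists and 4 without HCT116. The HIF-1α minus HIF-2α difference in the histone share, 2.64 points, became 4.40 at 2000 bp, 7.04 at 5000 bp and 0 with equal lists, and that of HCT116 against the other lines, 4.93, became 0 with equal lists. Leaving out 1 library at a time gave -5.25 to -4.45 and -1.28 to -0.894 points against all genes for HIF-1α and HIF-2α, 2.11 to 3.17 points between isoforms, 2.82 to 7.04 points for HCT116 (2.82 without replicate 2 of HCT116 HIF-1α), and 6 to 8 bound genes.

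The isoform test called 279 of 383 genes tested, and the number tested changed with the setting. It called 177 of 204 with the score limit and 82 of 85 with equal lists. It called 94 of 118 without HCT116, 81 of 104 without PC3 and 109 of 165 without T47D. It called 0 of 5784 when all genes with a peak in at least 1 library were adjusted together, where the exact test gave 297 genes at an unadjusted p up to 0.05. It called 0 histone genes, 1 (HIST1H4B) at 2000 bp, 3 at 5000 bp and, leaving out 1 library at a time, 0 to 1: without replicate 2 of A549 HIF-1α or replicate 1 of PC3 HIF-1α, both without a peak at H4C16, H4C16 was called. Of all genes tested, 297 of 406 were called at 2000 bp and 309 of 434 at 5000 bp. The counts were 316 of 412 without replicate 2 of A549 HIF-1α and 368 of 492 without replicate 1 of PC3 HIF-1α. With the replicate block 151 of 172 genes tested and 0 histone genes were called. The same-number correlations over genes were 0.00204 (A549), 0.00743 (HCT116), -0.141 (PC3) and -0.000189 (T47D). These values gave no sign that the numbers pair the samples. They cannot show whether libraries of the same number came from the same culture, which the labels do not say.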
